A study of Arabidopsis thaliana with 12 samples.

Results

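The Col-0×Per-1 hybrid of Arabidopsis thaliana was set against its mid-parent, the arithmetic mean of the Per-1 and Col-0 group means, gene by gene in the first leaves of seedlings. Members were the 17000 genes, of 34133 identifiers in the files, that reached 1 FPKM in at least 2 of 8 libraries: Col-0×Per-1 replicates 1 and 2, Per-1 replicates 1 and 2, and Col-0 replicates 1 to 4. FPKM counts sequenced fragments per length of transcript and size of library. The groups were a cross of natural accessions and the accessions themselves, sampled at day 14 on Murashige and Skoog plates with 1% sucrose, and the labels name no other treatment. The study also held the Aa-0 accession and its hybrid with Col-0, 12 libraries in all, and concerns the growth advantage (heterosis) of hybrids. Which accession was the mother is not stated in the labels, nor whether replicates were separate plants, so p-values measure only the spread between these libraries, which may be technical. Groups follow the labels of the samples, since the text of the series speaks of Ler-1 in place of Per-1 and of duplicates for Col-0 too.

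A first-generation hybrid carries 1 copy of each parent's genome in every cell. If each copy keeps the activity it has in its own parent, the hybrid's transcript level lies at the mid-parent, which is called additive expression. A level away from the mid-parent is called non-additive, and it can lie at 1 parent's level, nearer to 1 parent or outside both. Arabidopsis accessions are known to differ in the defence chemistry of their leaves. Glucosinolates, sulphur-rich compounds that myrosinase enzymes split when tissue is damaged, are made from methionine (aliphatic) or tryptophan (indole), and the genes at several steps are present or active in some accessions only. Oxylipins, among them the hormone jasmonate and the green leaf volatiles, are made from fatty acids after wounding.

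Several libraries stood apart before any comparison. Depth relative to Col-0 replicate 1 was 0.85 and 0.64 in the hybrid, 0.92 and 1.07 in Per-1, and between 1 and 1.14 in Col-0. Hybrid replicate 2 was thus the shallowest. Plastid-encoded genes held 2.92% and 5.76% of summed FPKM in the hybrid, 5.32% and 4.19% in Per-1, and from 1.93% to 3.27% in Col-0. The median log2(FPKM + 1) over tested genes was 3.19 and 3.04 in the hybrid, 3.19 in both Per-1 libraries and between 3.36 and 3.44 in Col-0, so all Col-0 libraries lay above the other 4. The Col-0 libraries were themselves divided, with CCA1, a morning gene of the circadian clock, at 106, 117, 8.58 and 9.01 FPKM in replicates 1 to 4. Results are therefore also given with each hybrid library left out, with either pair of Col-0 libraries alone, and after median-ratio scaling, which divides each library by its median ratio to the mean library. Leaf markers were high throughout. The summed level of 5 mesophyll genes was 33626 to 34883 FPKM in the hybrid, 29361 to 31464 in Per-1 and 26955 to 33794 in Col-0. The sum of 3 xylem markers was 40.0 to 43.3 FPKM in the hybrid, 28.1 to 34.6 in Per-1 and 58.4 to 65.3 in Col-0. WUS, CLV3 and LFY of the shoot apex and flower and SESA1 and OLEO1 of the seed were at 0 in all 8 libraries, and the markers of the apex, flower and seed were too low to be tested. Of the markers of 6 other cell types that were tested, with a single gene for trichomes and for roots, none was called against the mid-parent in limma. In bulk leaves, fewer cells of a type and less RNA per cell cannot be told apart.

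Genes read from 1 parent alone check the cross itself. Some genes averaged 5 FPKM or more in 1 parent and at most 0.1 FPKM in the other. Of these, 21 were read in Per-1 alone and 54 in Col-0 alone, and the hybrid expressed both kinds. The genome used for the reads was TAIR10, of Col-0. A missing or diverged Per-1 copy and low expression in Per-1 therefore cannot be told apart. A gene that Col-0 lacks could not be counted. The median level in the hybrid was 98.2% of the mid-parent for the Per-1 genes (quartiles 43.6% and 112%) and 93.8% for the Col-0 genes (quartiles 73.2% and 128%). The hybrid lay between 50% and 150% of the mid-parent for 13 of the 21 and 43 of the 54 genes. AT2G15555, a non-coding RNA, was at 19.7 and 20.6 FPKM in the hybrid, 38.6 and 41.8 FPKM in Per-1 and 0.04 to 0.09 FPKM in Col-0, which is 100% of the mid-parent. FLC, a MADS-box repressor of flowering that prolonged cold turns off, was at 34.6 and 39.0 FPKM in the hybrid, 53.7 and 42.4 FPKM in Per-1 and 0 to 0.26 FPKM in Col-0. Its difference from the mid-parent, 0.59 ± 0.16 on the log2(FPKM + 1) scale (SE), was not called (adjusted p = 0.0739). A few genes were nearly silent in the hybrid although 1 parent expressed them. Below 25% of the mid-parent were AT5G41660, AT1G66860, AT5G27345.1 and AT3G30700 of the Per-1 genes, at 0.129%, 6.09%, 6.74% and 23.2%, and AT1G20390 of the Col-0 genes, at 8.64%. The Col-0×Aa-0 hybrid had 0 such genes of its 16 and 47.

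**Figure D1:**
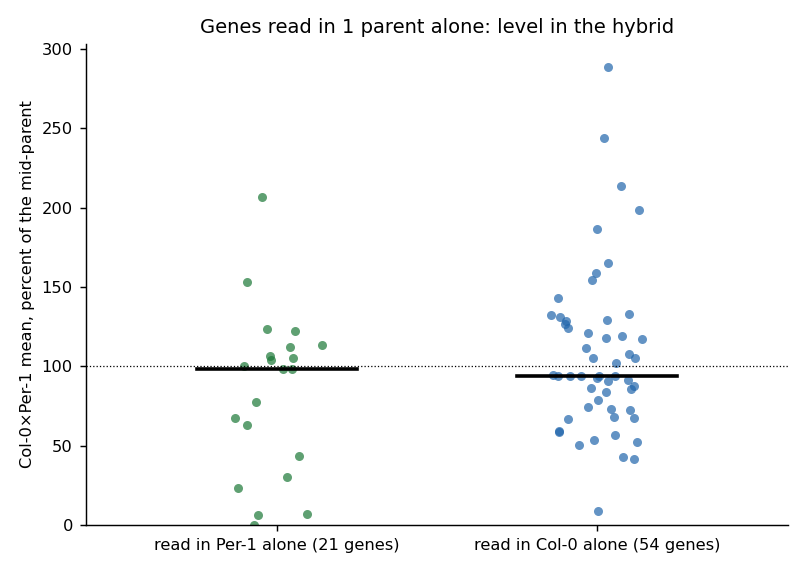
Level of the Col-0×Per-1 hybrid, in percent of the mid-parent (linear axis), for the 21 genes read in Per-1 alone and the 54 read in Col-0 alone; each point is 1 gene's hybrid mean over 2 libraries, black lines are medians (98.2% and 93.8%) and the dotted line is the additive level. Most points scatter about the additive level, and 4 Per-1 genes and 1 Col-0 gene lie below 25%.

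The hybrid lay below its mid-parent more often than above it. Against the mid-parent, 383 genes were lower in the hybrid (2.25% of those tested) and 62 were higher (0.365%) at an adjusted p under 0.05 in limma. The remaining 16555 genes were not called, and 85.6% of the tested genes lay within 0.5 of the mid-parent on the log2(FPKM + 1) scale. The whole distribution was displaced. Its median was -0.15 (quartiles -0.33 and -0.01), and 76.2% of tested genes had a negative value. After median-ratio scaling the median was -0.01, 160 genes were below (0.941%) and 107 above (0.629%). Unadjusted p was under 0.05 at 3347 genes below and 351 above. Without hybrid replicate 1, 66 genes were below and 16 above, and without replicate 2, 30 were below and 12 above. Without Per-1 replicate 1, 82 were below and 25 above, without Per-1 replicate 2, 214 and 39, and without Col-0 replicate 1 or 3, 219 and 42 or 174 and 50. With Col-0 replicates 1 and 2 alone the calls numbered 533 below and 85 above, and with replicates 3 and 4 alone 2128 below and 456 above. Hybrid replicate 1 was under the mid-parent in 67.4% of tested genes and replicate 2 in 79.5%.

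Of the 383, the parents differed at 278 by the test between Per-1 and Col-0, with Per-1 the higher at 121 and Col-0 the higher at 157, and 68 were called lower than each parent. Of the 62 genes above, the parents differed at 45, Per-1 being higher at 13 and Col-0 at 32, and 29 were called higher than each parent. In all, 73 genes were called below both parents (0.429%) and 30 above both (0.176%); after median-ratio scaling these were 26 and 47, so the order of the directions turned round with the scaling. In plain FPKM, both hybrid libraries were below all 6 parental libraries at 2364 genes (13.9%) and above all 6 at 289 (1.7%). On the log2(FPKM + 1) scale, among genes called below, the median difference was -0.79, with 106 genes at least 2-fold and 11 at least 4-fold lower, and among those above it was 0.90, with 20 at least 2-fold and 1 at least 4-fold higher.

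The largest fall was at AT5G41660, a protein-coding gene of chromosome 5 (16656708-16658405, TAIR10.1) with no characterized product. It was at 0.04 and 0 FPKM in the hybrid, 34.4 and 27.6 FPKM in Per-1 and 0 in every Col-0 library. The hybrid and Col-0 were thus both without reads or nearly so, and Per-1 stood alone. The difference from the mid-parent was -4.01 ± 0.12 (adjusted p = 3.3e-07). AT5G28450, annotated as a chlorophyll a/b-binding family protein (chromosome 5, 10372872-10374190), had the same arrangement. It was at 0.20 and 0.26 FPKM in the hybrid, 16.0 and 15.7 FPKM in Per-1 and 0.17 to 0.39 FPKM in Col-0. At 2.85% of the mid-parent, its hybrid libraries lay within the range of Col-0, and the difference was -2.88 ± 0.12 (adjusted p = 3.0e-06). AT1G66860, a class I glutamine amidotransferase-like gene (chromosome 1, 24942188-24944514), was at 0.30 and 0.34 FPKM in the hybrid, 14.9 and 6.09 FPKM in Per-1 and 0 in Col-0. Its Per-1 libraries differed from each other more than 2-fold, and the call (adjusted p = 0.0100) was lost in 2 of 12 omissions of a library. AT2G35945, a long non-coding RNA that overlaps AT2G35940, was at 3.05 and 3.78 FPKM in the hybrid, 31.0 and 32.0 FPKM in Per-1 and 1.85 to 4.77 FPKM in Col-0. Here too the hybrid fell within the Col-0 range, and without strand its reads and those of its neighbour cannot be told apart. The F-box gene AT2G27310 was at 4.96 and 2.47 FPKM in the hybrid, 48.6 and 20.5 FPKM in Per-1 and 3.82 to 12.9 FPKM in Col-0, a call (adjusted p = 0.0465) lost in 11 of 12 omissions. In all 10 of the largest falls among genes averaging 5 FPKM or more in a group, Per-1 was the higher parent.

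Of the genes called below both parents, BCAT4, described with its pathway, fell furthest relative to the nearer parent. AT1G47395, a small gene of unknown product, was at 3.13 and 1.77 FPKM in the hybrid, 18.5 and 8.79 FPKM in Per-1 and 7.23 to 9.94 FPKM in Col-0. AT4G27657, likewise uncharacterized, was at 3.08 and 2.50 FPKM in the hybrid, 17.5 and 18.17 FPKM in Per-1 and 5.26 to 12.5 FPKM in Col-0. Both hybrid libraries lay under all 6 parental ones in both genes, whose calls against the mid-parent (adjusted p = 0.0417 and 0.0423) were lost in 8 and 7 of 12 omissions. AT1G53903 was called below each parent but not below the mid-parent (-1.69 ± 0.40, adjusted p = 0.0578), with 2.93 and 0.47 FPKM in the hybrid, 13.0 and 7.34 FPKM in Per-1 and 3.94 to 7.28 FPKM in Col-0.

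Aliphatic glucosinolate synthesis was, of 20 gene lists, the one with the most members below the mid-parent. Of 29 tested genes, 17 fell and 0 rose, against 2.25% and 0.365% of all tested genes, and the list's median was -0.83 against -0.15 over all genes. Both hybrid libraries were below all 6 parental libraries at 17 members, against 13.9% of all tested genes. Unadjusted p was under 0.05 at 23 members below and 0 above, beside 3347 and 351 of all 17000 genes. Chain-elongation, core and side-chain genes were all among those that fell. The promoters of 2 of these genes are shown because they moved together; each is the 250 bases before the annotated start in the Col-0 reference (RefSeq, TAIR10.1), given 5′ to 3′ on the gene's strand, and the Per-1 sequence may differ. BCAT4 is at chr3:6849583-6849832 on the minus strand and CYP79F2 at chr1:5604794-5605043 on the plus strand.
BCAT4: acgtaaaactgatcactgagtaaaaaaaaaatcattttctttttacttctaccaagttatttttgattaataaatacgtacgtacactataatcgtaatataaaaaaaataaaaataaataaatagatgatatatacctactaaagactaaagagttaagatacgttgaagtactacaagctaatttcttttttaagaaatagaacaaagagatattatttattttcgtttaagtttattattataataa
CYP79F2: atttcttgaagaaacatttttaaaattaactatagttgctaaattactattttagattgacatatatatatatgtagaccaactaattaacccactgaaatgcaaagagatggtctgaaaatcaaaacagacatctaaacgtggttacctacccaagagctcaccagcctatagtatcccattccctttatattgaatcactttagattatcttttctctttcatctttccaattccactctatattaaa

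Neither stretch holds the G-box CACGTG, the W-box TTGACC or TTGACT, or the evening element AAAATATCT, each searched on both strands, and so all letters are in lower case. In windows from 250 bases before to 50 after the start, the G-box was present in 5 of 28 aliphatic genes (17.9%), against 9.13% of 16489 tested protein-coding genes. The W-box was present in 8 (28.6%), against 32% of all. The evening element was in 0 of the 28, against 3.23% of all. Among the genes called below, the G-box was present in 5.72% of 332.

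Methionine is first lengthened. BCAT4, the aminotransferase that removes the amino group in the first step (chromosome 3, 6846969-6849582), was at 5.16 and 11.6 FPKM in the hybrid, 41.5 and 27.3 FPKM in Per-1 and 27.5, 31.5, 31.4 and 37.3 FPKM in Col-0. The hybrid libraries differed more than 2-fold from each other, and both were below every parental library. BCAT4 overlaps AT3G19700. The difference was -1.87 ± 0.28 (adjusted p = 0.0129), and the call was lost in 1 of 12 omissions. MAM3, a methylthioalkylmalate synthase that makes the longest side chains (chromosome 5, 7718118-7721866), was at 1.96 and 2.34 FPKM in the hybrid, 46.5 and 40.3 FPKM in Per-1 and 0.29 to 0.46 FPKM in Col-0. The hybrid was above Col-0 but at 9.82% of the mid-parent (-2.86 ± 0.12, adjusted p = 3.0e-06). MAM1, its counterpart for short chains, had the other parental order and averaged 25.2 ± 7.43 FPKM in the hybrid, 36.5 ± 4.25 FPKM in Per-1 and 73.0 ± 9.96 FPKM in Col-0 (SD, n = 2, 2 and 4, as for all such means below). It too fell (-1.09 ± 0.22, adjusted p = 0.0369). Both MAM genes thus lay below the mid-parent, with the parents in opposite order. The isomerase subunits IPMI1 and IPMI2 fell by 1.397 and 1.31, the dehydrogenase IMD1 fell by 0.96 and BAT5, a plastid carrier of chain-elongated acids, fell by 1.13. The large isomerase subunit IIL1, which also serves leucine synthesis, was not called (-0.29 ± 0.11).

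The core structure is then built on the lengthened chain. CYP79F2, a cytochrome P450 that turns long-chained methionine derivatives into aldoximes (chromosome 1, 5605044-5607498), was at 0.86 and 1.22 FPKM in the hybrid, 6.48 and 4.98 FPKM in Per-1 and 2.29 to 3.47 FPKM in Col-0. Both hybrid libraries were below all others, and the call (-1.36 ± 0.15, adjusted p = 0.0025) was kept in all 12 omissions of a library. CYP79F1, the related enzyme of all chain lengths, averaged 20.7 ± 7.15 FPKM in the hybrid, 57.5 ± 6.29 FPKM in Per-1 and 47.8 ± 8.74 FPKM in Col-0 (-1.31 ± 0.24, adjusted p = 0.0301). The glutathione transferase GSTF11 fell by 1.41 and the peptidase GGP1 by 0.83. The sulfotransferases SOT17 and SOT18, which complete the core, fell by 1.17 and 0.71. CYP83A1, the next P450 of the route, was at -0.72 ± 0.21 and was not called (adjusted p = 0.0908), nor was the C-S lyase SUR1 at -0.62 ± 0.14 (adjusted p = 0.0509). APK1 and APK2, kinases that supply activated sulphate, fell by 0.69 and 0.98.

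Side-chain enzymes were less uniform. AOP2, the dioxygenase that makes alkenyl glucosinolates and is a transcribed pseudogene in the Col-0 reference (chromosome 4, 1351688-1354096), was at 0.53 and 0.99 FPKM in the hybrid, 32.6 and 25.3 FPKM in Per-1 and 2.58 to 4.71 FPKM in Col-0. It was thus the member that fell furthest, below both parents, at -3.30 ± 0.23 (adjusted p = 1.7e-04). The flavin monooxygenase GS-OX1, which oxidizes the side-chain sulphur, fell by 1.22. Its relatives were not called, with GS-OX4 at -0.80, GS-OX3 at -0.60, GS-OX2 at -0.55 and GS-OX5 at -0.01. Transcription factors of the pathway did not share the fall by the test. MYB28, the main activator, was at 21.0 and 28.8 FPKM in the hybrid, 17.59 and 27.6 FPKM in Per-1 and 18.5 to 27.02 FPKM in Col-0, so the 3 groups overlapped (0.12 ± 0.23, adjusted p = 0.788). MYB29 averaged 5.48 ± 2.14 FPKM in the hybrid, 2.91 ± 0.54 FPKM in Per-1 and 8.76 ± 1.69 FPKM in Col-0, which is near the mid-parent (-0.08 ± 0.26), and MYB76 was at -0.42 ± 0.24.

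The shallow hybrid replicate 2 was not the lower of the pair for these genes. Replicate 1 of the hybrid was below the mid-parent at 28 of the 29 members and replicate 2 at 27, and 5 members were lower in replicate 2 than in replicate 1, against 73.8% of all tested genes. The count of calls depended on both libraries, with 3 members called without hybrid replicate 1 and 4 without replicate 2. It was 8 after median-ratio scaling, where the list's median was -0.69, and 18 or 19 with either pair of Col-0 libraries alone.

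**Figure D2:**
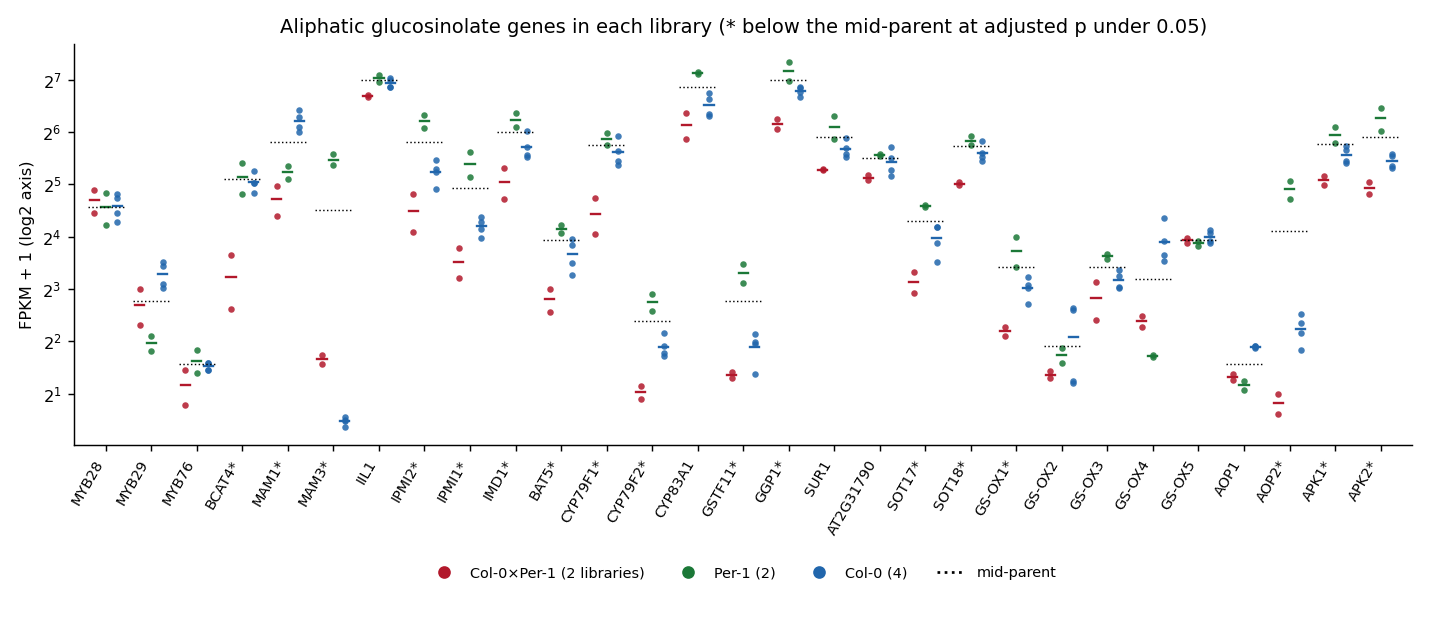
FPKM + 1 on a log2 axis for the 29 aliphatic glucosinolate genes in each library; points are single libraries (2 Col-0×Per-1 in red, 2 Per-1 in green, 4 Col-0 in blue), short lines are group means, dotted lines are mid-parents and an asterisk marks the 17 genes called below. The red points lie under the dotted line for most enzymes and scatter about it for MYB28, MYB29 and GS-OX5.

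Indole glucosinolate genes fell in part. Of 13 tested, 4 fell and 0 rose, against 2.25% and 0.365% of all tested genes, and the median was -0.87. CYP79B2, a P450 that makes indole-3-acetaldoxime from tryptophan, was at 10.5 and 7.77 FPKM in the hybrid, 29.9 and 18.0 FPKM in Per-1 and 14.2 to 19.6 FPKM in Col-0 (-1.10 ± 0.20, adjusted p = 0.0266). UGT74B1, the glucosyltransferase of the core route, was at 28.9 and 26.8 FPKM in the hybrid, 60.2 and 49.9 FPKM in Per-1 and 41.2 to 45.2 FPKM in Col-0 (-0.81 ± 0.14, adjusted p = 0.0202). In both genes the hybrid libraries were under every parental one, and each call was lost in 3 of 12 omissions. CYP83B1 fell by 0.70 (adjusted p = 0.0424), a call lost after median-ratio scaling (adjusted p = 0.116 in limma). IGMT2, a methyltransferase of the indole ring (chromosome 1, 7395179-7396823), was at 3.58 and 2.72 FPKM in the hybrid, 41.3 and 33.2 FPKM in Per-1 and 0.61 to 1.92 FPKM in Col-0. It lay above Col-0 and at 16.3% of the mid-parent (-2.29 ± 0.29, adjusted p = 0.0058), and reads of the near-identical IGMT genes may have been divided among them. Unadjusted p was under 0.05 at 9 members below and 0 above, beside 3347 and 351 of all 17000 genes. Without hybrid replicate 1 there was 1 call in the list, and without replicate 2 there were 0.

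Of 9 tested genes for breakdown of glucosinolates, 1 fell and 1 rose, against 2.25% and 0.365% of all tested genes. The list's median was -0.30, against -0.15 over all genes. At an unadjusted p under 0.05, 4 members were below and 1 above, beside 3347 and 351 of all 17000 genes. TGG2, 1 of the 2 main leaf myrosinases, was at 55.4 and 62.2 FPKM in the hybrid, 0.33 and 0.38 FPKM in Per-1 and 226 to 267 FPKM in Col-0. The hybrid stood clear of both parents, at 47.6% of the mid-parent (-1.06 ± 0.13, adjusted p = 0.0041). With a mid-parent averaged on the log2 scale the sign turned to 1.71, because that mid-parent is far lower when 1 parent is near 0. TGG1, the other leaf myrosinase, averaged 1336 ± 11.9 FPKM in the hybrid, 1163 ± 77.4 FPKM in Per-1 and 1806 ± 91.8 FPKM in Col-0 (-0.15 ± 0.12, adjusted p = 0.496). ESM1, which shifts breakdown away from nitriles (chromosome 3, 4729399-4731847), was at 463 and 472 FPKM in the hybrid, 43.2 and 46.8 FPKM in Per-1 and 450 to 661 FPKM in Col-0. Its hybrid libraries lay within the Col-0 range and far above Per-1 (0.67 ± 0.14, adjusted p = 0.0424). The call was lost in 11 of 12 omissions. ESP, the epithiospecifier protein, averaged 22.2 ± 0.66 FPKM in the hybrid, 41.7 ± 7.52 FPKM in Per-1 and 20.3 ± 1.16 FPKM in Col-0 and was not called (-0.47 ± 0.12, adjusted p = 0.0638).

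Jasmonate and oxylipin genes had the lowest median of the 20 lists, -1.12 over 30 tested genes. Of these, 4 were called below, against 2.25% of all tested genes, and 0 above. At an unadjusted p under 0.05, 19 were below and 0 above, beside 3347 and 351 of all 17000 genes. HPL1, the hydroperoxide lyase of green leaf volatile synthesis (chromosome 4, 8835368-8838676), was at 3.11 and 3.01 FPKM in the hybrid, 54.1 and 69.8 FPKM in Per-1 and 0.78 to 1.74 FPKM in Col-0. The hybrid was above Col-0 and at 9.68% of the mid-parent (-3.01 ± 0.22, adjusted p = 2.2e-04). OPR3, the reductase of jasmonate synthesis, was at 14.6 and 9.56 FPKM in the hybrid, 105 and 39.8 FPKM in Per-1 and 17.8 to 43.5 FPKM in Col-0. The difference was -2.01 ± 0.42 (adjusted p = 0.0391), and both hybrid libraries were below all others. The call was lost in 10 of 12 omissions and after median-ratio scaling. JAZ10, a repressor of jasmonate signalling that the hormone itself induces, was at 1.43 and 0.65 FPKM in the hybrid, 26.9 and 8.56 FPKM in Per-1 and 1.26 to 4.79 FPKM in Col-0. JAZ2, another repressor, was at 22.6 and 13.9 FPKM in the hybrid, 84.1 and 45.9 FPKM in Per-1 and 22.2 to 41.2 FPKM in Col-0. The hybrid libraries overlapped with those of Col-0 for both repressors. The differences were -2.48 ± 0.49 for JAZ10 and -1.36 ± 0.30 for JAZ2 (adjusted p = 0.0347 and 0.0447). After median-ratio scaling the call of JAZ2 was lost (adjusted p = 0.0711 in limma). The call of JAZ10 was lost in 4 of 12 omissions. The Per-1 libraries differed from each other by more than 2-fold for OPR3 and JAZ10, and the Col-0 libraries also spanned more than 2-fold. MYC2, the central transcription factor, had an SE near that of JAZ10 and was not called (-1.92 ± 0.49, adjusted p = 0.0698). With still wider spread, LOX4 (-2.53 ± 0.80) and JAZ7 (-2.62 ± 0.77) were not called either. JAR1, which conjugates jasmonate to its active form, and the receptor COI1 were near the mid-parent at -0.03 ± 0.10 and -0.12 ± 0.12. The calls numbered 2 after median-ratio scaling, 1 without hybrid replicate 1, 1 without hybrid replicate 2, and 11 or 10 with Col-0 replicates 1 and 2 or 3 and 4 alone. Members were lower in hybrid replicate 2 than in replicate 1 at 27 of 30, beside the lower depth of that library, whose part in the result was not tested.

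The promoter of JAZ10 (chr5:4218536-4218785, plus strand, TAIR10.1, 250 bases before the start) is shown because, unlike the other 2 printed, it held a searched motif. Capitals mark an evening element, AAAATATCT, 126 bases before the start. The window overlaps AT5G02045.
JAZ10: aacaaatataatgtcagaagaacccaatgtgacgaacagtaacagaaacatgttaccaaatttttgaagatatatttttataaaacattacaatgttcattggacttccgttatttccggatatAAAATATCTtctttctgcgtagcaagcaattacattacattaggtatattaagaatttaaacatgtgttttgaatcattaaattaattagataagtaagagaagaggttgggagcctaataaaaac

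The G-box was present in 5 of 30 jasmonate and oxylipin promoters (16.7%), the W-box in 9 (30.0%) and the evening element in 2 (6.67%), against 9.13%, 32% and 3.23% of all tested protein-coding genes. A match to these letters is a description of the sequence alone.

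Genes of growth machinery fell in small numbers. Of 25 genes for cytosolic ribosomal proteins 3 fell, RPS6A, PGY2 and RPL5A, against 2.25% of all tested genes, and the median of the list was -0.50. RPS6A, a component of the small subunit, was at 56.0 and 48.4 FPKM in the hybrid, 115 and 88.8 FPKM in Per-1 and 115 to 123 FPKM in Col-0, with both hybrid libraries below the rest (-1.07 ± 0.22, adjusted p = 0.0372). PGY2, a large-subunit protein of the L9 family, was at 67.7 and 66.3 FPKM in the hybrid, 123 and 102 FPKM in Per-1 and 105 to 134 FPKM in Col-0 (-0.79 ± 0.15, adjusted p = 0.0347). These calls were lost in 8 (RPS6A) and 6 (PGY2) of 12 omissions. All 25 members were negative, against 76.2% of all tested genes. All 25 were also lower in hybrid replicate 2 than in replicate 1, against 73.8% of all tested genes. After median-ratio scaling 0 were called in limma. Unadjusted p was under 0.05 at 15 of the 25, all below, beside 3347 below of all 17000 genes. Of 35 cell cycle and DNA replication genes 3 fell, against 2.25% of all tested genes. At an unadjusted p under 0.05, 15 of the 35 were below, beside 3347 of all 17000 genes. The 3 that fell were the replicative helicase subunits MCM3 and MCM7 and RNR1, the large subunit of ribonucleotide reductase. RNR1 was at 3.92 and 3.20 FPKM in the hybrid, 4.71 and 3.97 FPKM in Per-1 and 8.11 to 11.2 FPKM in Col-0, so that the hybrid lay at or below the lower parent (-0.82 ± 0.14, adjusted p = 0.0185). It alone of the 3 was called after median-ratio scaling, and its call was lost in 3 of 12 omissions. With hybrid replicate 1 or replicate 2 left out, 0 members of both lists were called.

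Of 23 salicylic acid and immune response genes 1 fell, against 2.25% of all tested genes, and 1 call is too few to describe the list. The list's median was -0.46, against -0.15 over all genes, and -0.43 after median-ratio scaling, against -0.01. At an unadjusted p under 0.05, 9 members were below and 0 above, beside 3347 and 351 of all 17000 genes. GRX480, a glutaredoxin that salicylic acid induces, was at 0.56 and 0.49 FPKM in the hybrid, 8.52 and 3.93 FPKM in Per-1 and 0.57 to 2.76 FPKM in Col-0, just below all parental values. The call (adjusted p = 0.0444) was lost in 10 of 12 omissions. PR1, the classical marker of the response, was at 2.72 and 0.19 FPKM in the hybrid, 41.3 and 10.7 FPKM in Per-1 and 0.06 to 1.67 FPKM in Col-0. Its hybrid libraries lay more than 10-fold apart, and it was not called (-2.54 ± 0.81, adjusted p = 0.112). Of 27 NLR immune receptor genes 1 rose and 0 fell, against 0.365% and 2.25% of all tested genes. At an unadjusted p under 0.05, 2 were above and 4 below, beside 351 and 3347 of all 17000 genes. The list's median of -0.13 was close to that of all genes. CHS3 and CSA1 averaged 3.65 ± 0.00 and 2.29 ± 0.01 FPKM in the hybrid, 0 in both Per-1 libraries, and 7.79 ± 0.80 and 5.04 ± 0.93 FPKM in Col-0. Their differences from the mid-parent were -0.07 ± 0.12 and -0.10 ± 0.14. RPS2, a receptor for bacterial effectors, rose with 2.53 and 1.94 FPKM in the hybrid, 0.29 and 0.42 FPKM in Per-1 and 1.06 to 1.78 FPKM in Col-0, where both hybrid libraries were above all others (0.82 ± 0.13, adjusted p = 0.0171). Its call was lost in 3 of 12 omissions, those of each hybrid library among them. It overlaps 2 annotated genes.

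Rises were fewer than falls. At some of those named, the hybrid exceeded both parents. AT4G29200, annotated as beta-galactosidase related (chromosome 4, 14398054-14400198), was at 11.5 and 9.67 FPKM in the hybrid, 2.68 and 4.63 FPKM in Per-1 and 0 to 0.09 FPKM in Col-0. Every hybrid library was more than 2-fold above every parental one, and the difference was 2.02 ± 0.17 (adjusted p = 4.1e-04). AT2G04170, of the TRAF-like family (chromosome 2, 1417178-1419621), was at 22.9 and 24.6 FPKM in the hybrid, 6.52 and 9.27 FPKM in Per-1 and 3.08 to 3.67 FPKM in Col-0, or 422% of the mid-parent (1.90 ± 0.17, adjusted p = 6.6e-04). AT5G45470, a putative membrane protein, was at 12.3 and 11.4 FPKM in the hybrid, 3.54 and 4.13 FPKM in Per-1 and 4.98 to 6.58 FPKM in Col-0 (1.16 ± 0.11, adjusted p = 7.2e-04). These 3 calls were kept in all 12 omissions of a library. AT1G35710, a leucine-rich repeat receptor-like kinase, was at 8.79 and 6.42 FPKM in the hybrid, 1.51 and 1.61 FPKM in Per-1 and 2.97 to 4.51 FPKM in Col-0 (1.22 ± 0.14, adjusted p = 0.0038). AT1G48770, of unknown function, was at 4.97 and 5.61 FPKM in the hybrid, 1.89 and 2.39 FPKM in Per-1 and 2.11 to 2.78 FPKM in Col-0. Its hybrid libraries were also apart from all 6 others (0.95 ± 0.14, adjusted p = 0.0108). The calls of AT1G35710 and AT1G48770 were lost in 1 and 2 of 12 omissions, and AT5G45470 and AT1G48770 each overlap a neighbouring gene.

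At other named rises the hybrid stood near the level of an expressed Col-0 parent while Per-1 was close to 0. AT4G16400, which overlaps 3 annotated genes, was at 15.02 and 13.3 FPKM in the hybrid, 0.21 and 0.15 FPKM in Per-1 and 12.1 to 13.1 FPKM in Col-0, so that the hybrid was just above the Col-0 range. The call (1.04 ± 0.11, adjusted p = 0.0014) was kept in all 12 omissions. AT2G25510, of unknown product, was at 1010 and 720 FPKM in the hybrid, 0.18 and 0 FPKM in Per-1 and 471 to 907 FPKM in Col-0. Hybrid and Col-0 overlapped there, and the call (adjusted p = 0.0409) was lost in 9 omissions. The long non-coding RNAs AT4G13505 and AT5G01595 and the gene AT2G21185 had the same arrangement, with adjusted p between 0.0336 and 0.0444 and calls lost in 5 to 11 omissions. MIR850, a microRNA precursor that overlaps AT4G13495, was at 12.4 and 12.03 FPKM in the hybrid, 5.09 and 7.66 FPKM in Per-1 and 0.64 to 1.19 FPKM in Col-0. Here Col-0 was the lower parent and both hybrid libraries were above all 6 parental ones (1.51 ± 0.28, adjusted p = 0.0312), a call lost in 3 of 12 omissions.

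**Figure D3:**
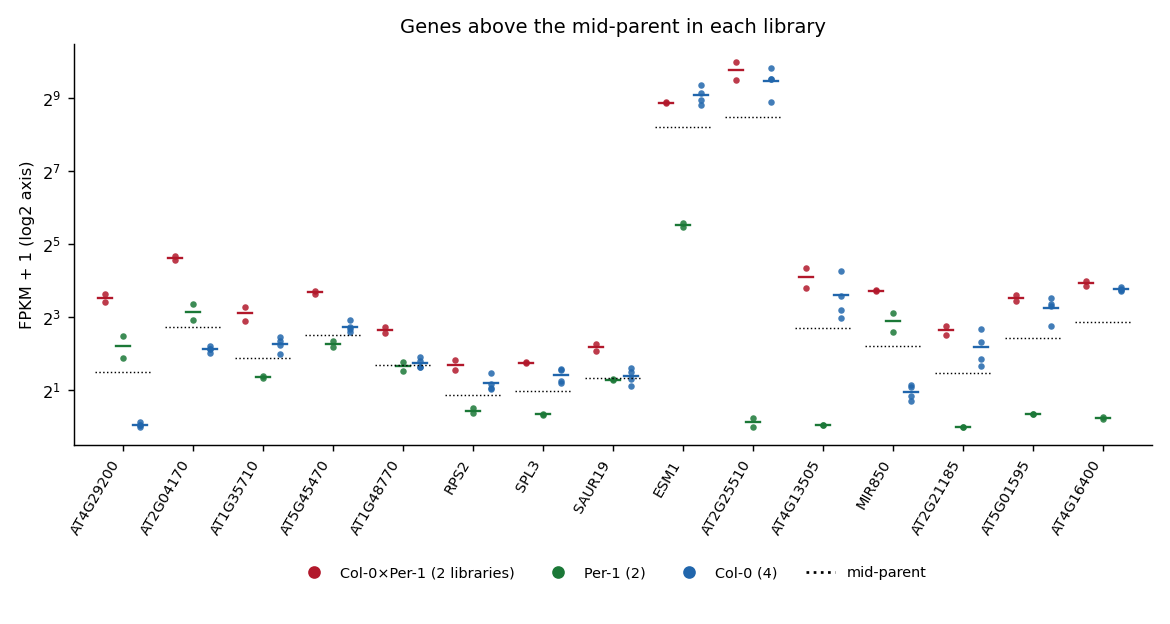
FPKM + 1 on a log2 axis for 15 named genes called above the mid-parent; points are single libraries (2 Col-0×Per-1 in red, 2 Per-1 in green, 4 Col-0 in blue), short lines are group means and dotted lines are mid-parents. At AT4G29200, AT2G04170, AT1G35710, AT5G45470, AT1G48770, RPS2, SPL3, SAUR19 and MIR850 both hybrid libraries lie above all 6 parental ones, and at AT2G25510, AT4G13505, AT2G21185, AT5G01595 and AT4G16400 Per-1 is close to 0.

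Among developmental genes there were single calls. SPL3, a transcription factor of the change from juvenile to adult phase, was at 2.34 and 2.41 FPKM in the hybrid, 0.26 and 0.27 FPKM in Per-1 and 1.29 to 1.99 FPKM in Col-0, with the hybrid above all others (0.79 ± 0.12, adjusted p = 0.0149). The call was lost in 2 of 12 omissions, those of the hybrid libraries. It overlaps AT2G33815. SPL3 was the 1 call among 17 flowering-time genes, against 0.365% of all tested genes above and 2.25% below. That list's median was 0.04. At an unadjusted p under 0.05, 1 member was below and 2 above, beside 3347 and 351 of all 17000 genes. SOC1, which promotes flowering and which FLC represses, was at 16.8 and 15.7 FPKM in the hybrid, 9.61 and 15.7 FPKM in Per-1 and 39.2 to 43.8 FPKM in Col-0. The hybrid thus lay near Per-1, but the difference from the mid-parent was not called (-0.70 ± 0.16, adjusted p = 0.0536). SAUR19, a small auxin-induced gene of cell expansion, was the 1 call among 25 auxin and PIF growth genes, against the same shares of all tested genes. It was at 3.85 and 3.19 FPKM in the hybrid, 1.41 and 1.49 FPKM in Per-1 and 1.18 to 2.04 FPKM in Col-0 (0.83 ± 0.15, adjusted p = 0.0294). That call was lost in 5 of 12 omissions. SAUR19 belongs to a family of near-identical SAUR genes, among which reads may have been divided. The auxin and PIF list had a median of 0.05. At an unadjusted p under 0.05 it had 4 members below and 3 above, beside 3347 and 351 of all 17000 genes.

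Photosynthesis genes of the nucleus were the list with the highest median, 0.14 over 54 members, against -0.15 over all genes, and none passed the test. PSBO1, of the oxygen-evolving complex, averaged 6071 ± 40.8 FPKM in the hybrid, 5397 ± 246 FPKM in Per-1 and 5378 ± 209 FPKM in Col-0 (0.17 ± 0.11, adjusted p = 0.402). LHCB3, a light-harvesting protein, averaged 6080 ± 265 FPKM in the hybrid, 5128 ± 495 FPKM in Per-1 and 4416 ± 684 FPKM in Col-0 (0.35 ± 0.17, adjusted p = 0.271). RBCS1A, a Rubisco small subunit, averaged 17019 ± 863.5 FPKM in the hybrid, 17796 ± 451 FPKM in Per-1 and 9752 ± 11261 FPKM in Col-0. Its Col-0 SD exceeded the mean, so its difference of 0.31 ± 3.92 says little. The cause of that spread was not tested. Both hybrid libraries were above all 6 parental libraries at 8 of the 54 members, against 1.7% of all genes. They were below all 6 at 1 member, against 13.9% of all genes. Unadjusted p was under 0.05 at 1 member below and 0 above, beside 3347 and 351 of all 17000 genes. The 19 chlorophyll synthesis genes (median -0.14), 21 leaf growth regulators (-0.02) and 26 DNA methylation and silencing genes (-0.13) had 0 calls in limma, beside 5, 4 and 7 members below and 0 above at an unadjusted p under 0.05, where 3347 of all 17000 genes were below and 351 above. So did 27 clock genes (-0.06), 23 cold, drought and abscisic acid genes (-0.58), 7 heat shock genes (-0.59), 8 flavonoid genes (-0.13), 12 sugar status genes (-0.62) and 9 senescence genes (-0.42), with from 0 to 5 members below and at most 1 above at an unadjusted p under 0.05. The clock list depended on which Col-0 libraries entered. It had 3 calls below and 0 above with Col-0 replicates 1 and 2 alone, and 10 below and 10 above with replicates 3 and 4 alone. Of all 17000 genes, 533 were below and 85 above in the first setting, and 2128 below and 456 above in the second. CCA1 stood at 44.8 and 39.1 FPKM in the hybrid and 21.8 and 26.3 FPKM in Per-1, between the 2 levels of Col-0 given above, and LHY, its partner, was at 10.2 and 8.68 FPKM in the hybrid, 6.05 and 5.84 FPKM in Per-1 and 50.6, 51.5, 1.57 and 1.85 FPKM in Col-0.

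**Figure D4:**
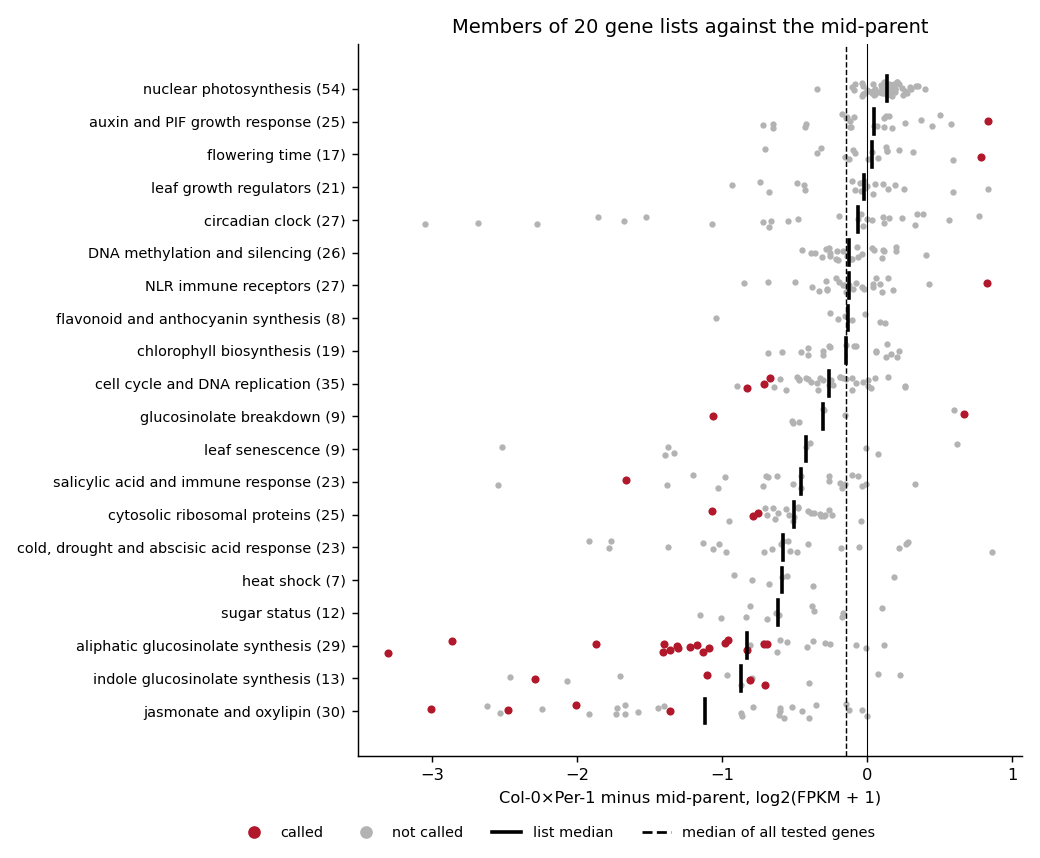
Difference between the Col-0×Per-1 hybrid and its mid-parent, log2(FPKM + 1), for the tested members of 20 gene lists, ordered by median; each point is a gene, red points passed the test, thick bars are list medians and the dashed line is the median of all 17000 genes (-0.15). Jasmonate, indole and aliphatic glucosinolate genes are lowest, and nuclear photosynthesis genes lie from -0.34 to 0.40 with a median of 0.14.

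Additive expression was assessed at the 1177 genes where the parents were called different and at least 2-fold apart. Per-1 and Col-0 differed at 4390 genes in all (25.8%), with Per-1 the higher at 1041 and the lower at 3349; after median-ratio scaling they were 1740 and 1592. Of the 1177, 251 were additive in the sense that the 95% interval of the difference from the mid-parent lay within 0.5 of it, 122 fell and 31 rose, and the other 773 were in none of these classes. Genes with Per-1 higher numbered 473, of which 72 were additive, 85 fell and 8 rose. Genes with Col-0 higher numbered 704, of which 179 were additive, 37 fell and 23 rose. On a linear scale where the lower parent is 0% and the higher 100%, the hybrid's median position was 29.0% where Per-1 was higher (quartiles 5.83% and 55.3%) and 39.3% where Col-0 was higher (21.7% and 55.4%). After median-ratio scaling the medians were 36.1% and 55.4%, so the hybrid lay below the middle where Per-1 was higher under both scalings, while its side of the middle where Col-0 was higher depended on the scaling.

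**Figure D5:**
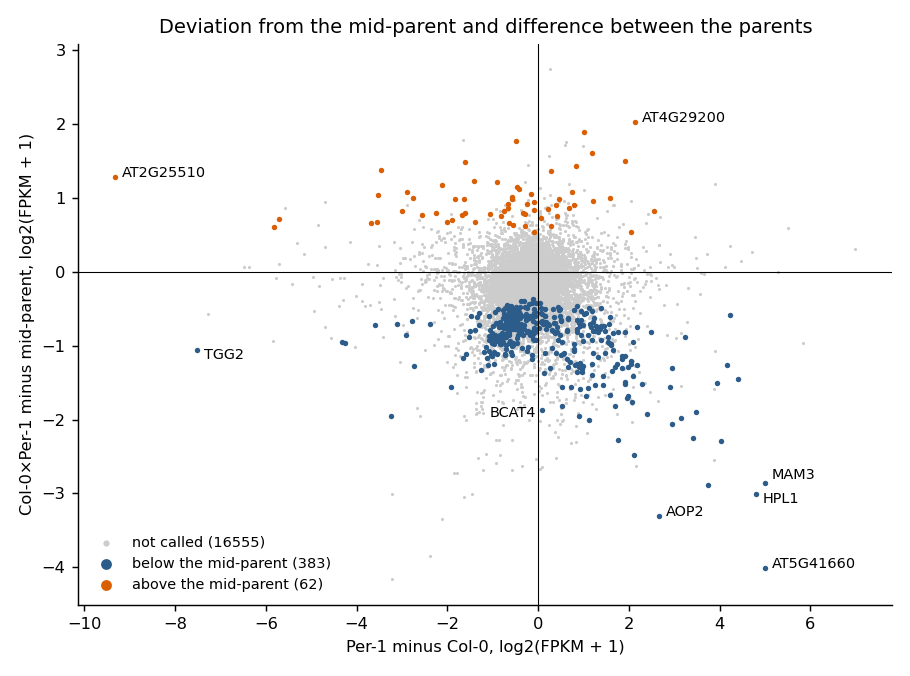
Difference of the Col-0×Per-1 hybrid from its mid-parent (vertical) against Per-1 minus Col-0 (horizontal), both log2(FPKM + 1); each point is 1 of 17000 tested genes, blue for the 383 called below, orange for the 62 called above and grey for the 16555 not called. The deepest called falls (AT5G41660, AOP2, HPL1, MAM3) lie at the right, where Per-1 was the higher parent.

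The additive genes named here were those with the largest log2 difference between the parents, so a parent near 0 follows from that choice. AT3G47250 was at 48.4 and 39.4 FPKM in the hybrid, 0.03 and 0.02 FPKM in Per-1 and 76.9 to 89.4 FPKM in Col-0, or 105% of the mid-parent. AT1G63880, of the TIR-NBS-LRR class of disease resistance genes, was at 11.1 and 9.62 FPKM in the hybrid, 0 in Per-1 and 21.1 to 24.6 FPKM in Col-0. In the other direction, AT4G12100, of the cullin family, was at 12.1 and 11.4 FPKM in the hybrid, 20.7 and 21.3 FPKM in Per-1 and 0 in Col-0, and AT3G61030, with a lipid-binding domain, was at 6.07 and 5.29 FPKM in the hybrid, 10.6 and 12.6 FPKM in Per-1 and 0 in Col-0. In these 4 genes the hybrid libraries were apart from both parents, and the hybrid mean was 105%, 92.9%, 112% and 98% of the mid-parent, in the order named. AT4G16880, a leucine-rich repeat gene at 22.02 and 21.2 FPKM in the hybrid, 0.05 and 0.04 FPKM in Per-1 and 32.9 to 43.2 FPKM in Col-0, lay at 119%, near the bound of the interval.

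When the hybrid was tested against each parent, it differed from Per-1 at 810 genes (412 higher, 398 lower) and from Col-0 at 3423 (453 higher, 2970 lower). After median-ratio scaling the difference from Col-0 was called at 1728 genes (865 higher, 863 lower). Among the 4390 genes at which the parents differed, the hybrid differed from the higher parent alone at 1843, from the lower parent alone at 470, from both and between them at 265, from both and outside them at 33, and from neither at 1779. After median-ratio scaling it differed from the higher alone at 631 and from the lower alone at 840. Col-0 had 4 libraries and Per-1 had 2, so the same distance passes the test more readily against Col-0, and not differing from a parent does not show that the levels are the same.

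The annotation of the called genes was set beside that of all tested genes. Long non-coding RNAs made up 28 of the 383 genes below (7.31%) and 8 of the 62 above (12.9%), against 134 of 17000 tested (0.788%), and pseudogenes 11 and 3, against 57 tested. Protein-coding genes were 86.7% of those below and 72.6% of those above, against 97.0% of those tested. Overlap with another annotated gene was found at 39.4% of genes below and 43.5% of genes above, against 32.8% of all tested, and the libraries do not mark the strand. By chromosome the share of tested genes below ran from 1.82% on chromosome 3 to 2.85% on chromosome 4, and the share above from 0.238% to 0.515% on the same pair.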

How the data were processed

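The deposited files held FPKM per gene, written by the authors to 2 decimals, for 12 libraries. Per the labels' protocols, RNA was extracted with RNeasy columns and 1 µg made into TruSeq v2 libraries. Per the submitters' processing notes, the tools were TopHat2 2.0.8b, Cufflinks 2.0.2 and edgeR 3.12.0, with the TAIR10 genome. The tool that made the FPKM and the total behind the scaling are not stated in these sources. Absolute depth is unknown. Relative depth was read from the ratios of low values (0.1 to 2 FPKM).

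Genes that reached 1 FPKM in 2 or more of the 8 libraries were fitted on log2(FPKM + 1), a scale that understates changes of low genes, using limma 3.58.1 in R 4.3.3. Group means of all 12 libraries were fitted (7 residual degrees of freedom, eBayes with a trend). The hybrid's deviation was log2(mean hybrid FPKM + 1) minus log2(mid-parent FPKM + 1), with a delta-method SE, and p-values were adjusted by Benjamini-Hochberg over 17000 genes. A change was called at an adjusted p under 0.05. A gene outside both parents was called against each of them in the same direction. The code was tested on simulated data.

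Members and lists were chosen with earlier results of these data known. The 20 lists and the marker sets held 515 genes, 492 with their symbol in the reference. The 55 genes named by rule included the 10 largest rises and falls among called genes averaging 5 FPKM or more in a group. Both hybrid libraries of these had to be on 1 side. The rule also took the 5 largest outside both parents on each side and up to 3 called members per list. Of additive genes it took the 6 with the largest log2 difference between the parents, and 3 on each side by the same measure. Last came 3 one-parent genes on each side, and FLC, SOC1, CCA1, LHY, PR1, AOP2, MAM3 and HPL1. Other genes named were chosen after their values were seen. Names, coordinates and sequences are from RefSeq (TAIR10.1), where 31416 of 34133 identifiers were found. Plots and tables used Python 3.11.15. The alternatives were other pseudocounts (0.1, 0.5), filters (none, 5 FPKM), scalings, definitions of the mid-parent, sets of libraries, a replicate block, and leaving out each library.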

Additional observations from a re-analysis of the deposited data

Results flagged for a closer look

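Of the values checked in the 4 Col-0 libraries, 56 genes among them, 2 had a single library far from the other 3. The test flags about 1 in 20 groups by chance, so 2 flags can arise by chance alone. FLC was at 0.26 FPKM in Col-0 replicate 1 and at 0 to 0.04 FPKM in the others, against which the hybrid's 34.6 and 39.0 FPKM are far higher. Plastid-encoded genes held 1.93% of summed FPKM in Col-0 replicate 3 and 3.09% to 3.27% in the others.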

How the results depend on the processing

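Calls against the mid-parent numbered 445 (62 above, 383 below) and, with 1 library left out, from 42 to 484 (12 to 65 above, 30 to 419 below), the ranges here including median-ratio scaling without a hybrid library, an alternative chosen after seeing the data. In the same omissions, genes above both parents ranged from 9 to 28 (30 in the report) and below both from 4 to 64 (73), Per-1 against Col-0 from 1891 to 4652, the hybrid against Col-0 from 254 to 3623 and against Per-1 from 386 to 778. Genes differing from the lower parent alone ranged from 289 to 460, from the higher alone from 179 to 2024, and additive genes from 111 to 261. List calls ranged from 2 to 17 (aliphatic), 0 to 4 (indole), 0 to 2 (breakdown), 1 to 10 (jasmonate), 0 to 1 (salicylic acid), 0 to 2 (NLR), 0 to 1 (chlorophyll), 0 to 4 (ribosomal), 0 to 4 (cell cycle), 0 to 1 (leaf growth), 0 to 2 (flowering), 0 to 2 (auxin) and 0 to 1 (senescence). Among additive genes, AT3G47250 ranged from -0.083 to 0.40, AT2G10410.1 from -0.21 to 0.28 and AT1G63880 from -0.20 to 0.18.

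Median-ratio scaling gave 267 calls (107 above, 160 below), 47 above and 26 below both parents, 1728 against Col-0, 840 genes differing from the lower parent alone and 631 from the higher alone, and list calls of 8 (aliphatic), 2 (jasmonate), 0 (salicylic acid), 2 (NLR), 0 (ribosomal) and 1 (cell cycle). AT2G10410.1 turned to 0.18 and AT1G63880 to 0.15. Quantile normalization gave 254 (104 above, 150 below), 50 above and 21 below both, 1693 against Col-0, 837 and 605 in the same classes, and list calls of 6 (aliphatic), 2 (indole), 2 (jasmonate), 0 (salicylic acid), 2 (NLR), 1 (ribosomal) and 1 (cell cycle), with the same genes at 0.18 and 0.15.

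Col-0 replicates 3 and 4 alone gave 2584 calls (456 above, 2128 below), 78 above and 156 below both parents, 5335 against Col-0, and 770 and 2877 genes differing from the lower and from the higher parent alone. List calls were then 9 (indole), 4 (breakdown), 10 (jasmonate), 3 (salicylic acid), 4 (NLR), 1 (photosynthesis), 9 (chlorophyll), 15 (cell cycle), 5 (leaf growth), 20 (clock), 3 (flowering), 3 (auxin), 12 (cold, drought and abscisic acid), 2 (flavonoid), 2 (senescence) and 1 (DNA methylation). AT1G66100 turned to 0.16, CCA1 (AT2G46830) to 1.303 and LHY (AT1G01060) to 1.11. With Col-0 replicates 1 and 2 alone the lists had 11 (jasmonate), 1 (photosynthesis), 3 (clock), 2 (auxin) and 1 (flavonoid), and AT2G10410.1 turned to 0.16. Of all tested genes, 533 were below and 85 above in that setting.

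A filter at 5 FPKM, which tests fewer genes, gave 253 calls (24 above, 229 below), 8 above and 46 below both, 453 against Per-1, 285 differing from the lower parent alone, 134 additive, and lists at 1 (breakdown), 0 (salicylic acid), 0 (NLR), 1 (cell cycle), 0 (flowering) and 0 (auxin). Leaving out overlapping genes gave 216 (30 above, 186 below), 40 below both, 2859 between parents, 425 against Per-1, 285 and 1165 in the parental classes, and lists at 1 (breakdown), 2 (jasmonate), 0 (salicylic acid), 0 (NLR) and 0 (flowering). With no filter, 112 genes were above, 60 above both, and the jasmonate and salicylic acid lists had 2 and 0. A pseudocount of 0.1 gave 18 above both and 129 additive. The 8 libraries alone gave lists at 2 (indole), 1 (breakdown), 1 (jasmonate), 0 (salicylic acid), 6 (ribosomal) and 1 (leaf growth). With the mean of log2 values as mid-parent, 170 genes were above, lists had 0 (salicylic acid), 4 (NLR) and 2 (flowering), and TGG2 (AT5G25980), AT2G10410.1, AT1G63880, AT3G61030 and AT1G66100 turned to 1.71, 1.85, 1.23, 0.91 and 2.24; with fitted values the salicylic acid list had 0.

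Replicate numbers are shared by 2 replicates per group, with correlations of their deviations of 0.30, 0.30 and 0.37 between groups, and the labels do not pair them. With a replicate block there were 272 calls (218 below), 2277 against Col-0, and lists at 8 (jasmonate), 1 (photosynthesis), 0 (ribosomal), 0 (cell cycle), 1 (clock) and 1 (flavonoid), and AT2G10410.1 was at 0.16. For changes beyond these settings' construction, the cause was not tested. With 2 hybrid libraries, 1 of them at 0.64 of the depth of Col-0 replicate 1, low genes are least precise.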
